A study of Solanum lycopersicum with 4 samples.

Results

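The subject is the sucrose and starch metabolism of tomato fruit (Solanum lycopersicum, cultivar Ailsa Craig), followed through 10 of the 34675 genes in an RNA sequencing table. The genes were chosen by a list of Solyc IDs and names, not by their values. They are the vacuolar invertase TIV1 (Solyc03g083910.2, chromosome 3), the cell wall invertases LIN5 (Solyc09g010080.2, chromosome 9) and LIN6 (Solyc10g083290.1, chromosome 10), and the sucrose synthases SUS1 (Solyc12g009300.1, chromosome 12) and SUS3 (Solyc07g042550.2, chromosome 7). The others are sucrose-phosphate synthase SPS (Solyc07g007790.2, chromosome 7), fructokinase FRK2 (Solyc06g073190.2, chromosome 6), the sucrose transporter SUT1 (Solyc11g017010.1, chromosome 11), and the large and small subunits of ADP-glucose pyrophosphorylase, AGPL1 (Solyc01g109790.2, chromosome 1) and AGPS1 (Solyc07g056140.2, chromosome 7). The table pairs none of these IDs with a name. Of the 10 names, 9 were found as a symbol or synonym in the RefSeq gene table (assembly SLM_r2.1), and all 9 of these lie there on the chromosome that the digits of the Solyc ID give. AGPS1 was not matched.

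Transgenic fruit expressing CsMYBF1, a MYB transcription factor gene from citrus, was compared with wild-type fruit of the same cultivar. There were 2 wild-type libraries and 2 transgenic ones, of which replicate 1 is line D7 and replicate 2 is line C2. Neither group was treated. The sources used here do not give the stage of the fruit, the promoter of the transgene or whether the libraries came from separate plants, so the spread between wild-type libraries may be technical, and that between transgenic libraries is a spread between lines. The fruit label could not be checked against ripening or leaf markers, because the reference pairs no marker with a Solyc ID.

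Fruit imports carbon as sucrose. Invertases cut it irreversibly into glucose and fructose, in the cell wall (LIN5, LIN6) or in the vacuole (TIV1), whereas sucrose synthases cut it reversibly into UDP-glucose and fructose in the cytosol. Fructokinase passes the fructose on to metabolism, SPS makes the precursor from which sucrose is built again, SUT1 carries sucrose across the plasma membrane, and ADP-glucose pyrophosphorylase makes the ADP-glucose from which young fruit builds starch. In cultivated tomato the vacuolar invertase is known for the store of glucose and fructose in ripe fruit, and LIN5 for natural variation in fruit sugar content.

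Levels are in RPKM, in which the reads of a gene are divided by its length in kilobases and by the size of the library. This sets genes of unlike length on a shared scale, but only roughly, since fold changes here moved with gene length. Depth recovered from the steps of the RPKM values was 12916160 to 21403774 reads per library. Differences were tested with limma on log2(RPKM + 1) over the 16876 genes whose mean reached 1 RPKM, with Benjamini-Hochberg adjustment over all of them and a threshold of 0.05. Over the genes tested, log2 fold changes centred on a median of 0.49 as deposited. Median-of-ratios scaling moved it to -0.05. They also moved with gene length and level. The median was 0.54 for genes of 1200 to under 1800 bases, 1.07 for 1800 to under 2500 bases and 1.44 for 2500 to under 4000 bases, and it was -0.84 for genes whose mean reached 500 RPKM. Values relative to the shift with length stand beside the results, and the median for genes of the same level beside those of TIV1, SUS3 and SPS. The cause of the shifts was not tested. In bulk fruit, fewer cells of a type and less RNA per cell cannot be told apart.

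SUS3 and SPS were higher in the transgenic libraries as deposited, and none of the genes tested passed as lower. The mean SUS3 level was 4.64-fold and the mean SPS level 2.84-fold the wild-type mean. Of the 9 genes tested, these 2 passed as higher and 0 as lower, where 18.8% of all genes tested passed as higher and 2.09% as lower. The median log2 fold change of the 9 genes was 0.59, beside 0.49 for all genes tested. The 7 genes that did not pass had adjusted p-values from 0.18 to 0.99 (limma). In 5 of the 10 genes (SUS1, SUS3, SPS, FRK2 and AGPL1) both lines lay above both wild-type libraries, and in 0 genes both lay below. Of the 9 tested, 4 lay above and 0 below, and of all genes tested 50.7% lay above and 17.4% below. AGPL1, with a mean of 0.911 RPKM, fell under the filter and was not tested, and LIN5 and LIN6 reached the filter through line D7. At an unadjusted p below 0.05 (limma) the number was again 2 higher and 0 lower, where 34.1% of all genes tested were higher and 7.35% lower.

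**Figure D1:**
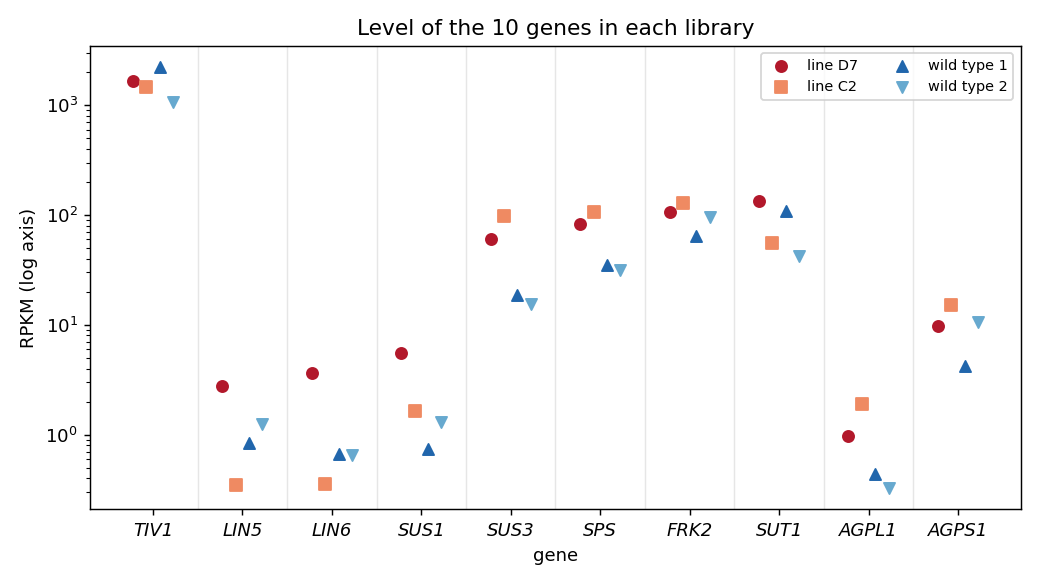
RPKM of the 10 genes on a log axis, with a point for each of the 4 libraries (line D7, line C2 and the wild-type replicates). TIV1 is the highest in all 4 libraries, from 1076 to 2227 RPKM, and the points of both lines lie above both wild-type points for SUS1, SUS3, SPS, FRK2 and AGPL1.

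The levels spanned a wide range, with the vacuolar invertase far above all others. TIV1 had a mean of 1605 RPKM over the 4 libraries and stood 24th to 131st among all genes of a library. FRK2 (98.6 RPKM), SUT1 (84.9), SPS (63.7) and SUS3 (48.3) followed, and their ranges over the libraries overlapped from each to the next. AGPS1 (9.90 RPKM) lay below SUS3 in all 4 libraries without overlap of their ranges, and above SUS1 in all 4, with overlap. SUS1 (2.29), LIN6 (1.33), LIN5 (1.31) and AGPL1 (0.911) came last, and the ranges of each neighbouring pair overlapped. By their values LIN5 and LIN6 changed places, with LIN6 the higher of the pair in both lines and LIN5 in both wild-type libraries. Their order is not settled by the reads. In line C2 LIN5 and LIN6 stood at 0.348 and 0.354 RPKM, from 9 and 8 reads. The exact counting intervals of the pair overlapped in all 4 libraries. The 10 genes together took 0.231% and 0.114% of the summed RPKM in the wild-type libraries, and 0.244% and 0.23% in lines D7 and C2.

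Among the genes that cleave sucrose, the vacuolar invertase did not separate the groups. Lines D7 and C2 gave 1647 and 1472 RPKM of TIV1, while wild-type replicates 1 and 2 gave 2227 and 1076 RPKM. Both lines lay between the wild-type libraries, which were 2.07-fold apart. Means and SDs (n = 2 each) were 1651 ± 813 RPKM for wild type and 1559 ± 124 RPKM for the lines, from 32414 to 109562 reads per library. Between the groups TIV1 differed by a log2 fold change of 0.0083 (standard error 0.42; adjusted p = 0.99, limma), and its sign turned with the wild-type library left out: -0.52 without replicate 2 and 0.53 without replicate 1. TIV1, at 2299 bases, lay 1.06 below the median log2 fold change of its length class, where 5.98% of 2594 genes had a lower value. Against genes of its level it lay above the median of -0.84. With the trend on gene length removed from each library it stood at -1.13 (standard error 0.35; adjusted p = 0.16, limma), and with median-of-ratios scaling it was -0.63 (standard error 0.39, adjusted p = 0.28). Quantile normalization gave the opposite sign, 0.78 (standard error 0.45; adjusted p = 0.28, limma).

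SUS3, a sucrose synthase, had the largest log2 fold change among the 9 genes tested. The gene read 18.8 and 15.4 RPKM in wild-type replicates 1 and 2, and 60.6 and 98.4 RPKM in lines D7 and C2. The lower of the lines was 3.21-fold above the higher of the wild-type libraries, and the groups did not overlap. Means and SDs (n = 2 each) were 17.1 ± 2.44 RPKM for wild type and 79.5 ± 26.8 RPKM for the lines, from 569 to 3587 reads. Its log2 fold change of 2.12 (standard error 0.34) passed with an adjusted p of 0.031 (limma), higher in 2 of 2 lines. SUS3, at 2822 bases, lay 0.68 above the median of its length class, where 93.9% of genes had a lower log2 fold change and 57.8% were themselves called higher. Against genes of its level, 20 to under 50 RPKM, SUS3 lay above the median of 0.47, and 22.2% of those genes were called higher. With the length trend removed SUS3 had a value of 0.77 (standard error 0.32; adjusted p = 0.22, limma), and with median-of-ratios scaling it was 1.497 (standard error 0.34, adjusted p = 0.054). Leaving out line D7, line C2 or wild-type replicate 2 gave log2 fold changes of 2.46, 1.77 and 1.98 with limma adjusted p-values of 0.156, 0.189 and 0.0724, whereas the call held without wild-type replicate 1 (adjusted p = 0.0384).

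SUS1, the other sucrose synthase, was far less abundant, and most of its difference lay in line D7. Lines D7 and C2 gave 5.49 and 1.63 RPKM of it, while wild-type replicates 1 and 2 gave 0.734 and 1.29 RPKM. Line C2 was 1.26-fold above the higher wild-type library, and its exact 95% counting interval of 1.22 to 2.15 RPKM (51 reads) overlapped that of wild-type replicate 2, 0.929 to 1.76 RPKM (41 reads). The lines differed by 3.36-fold, with an exact 95% counting interval of 2.46 to 4.66 for the ratio of these 2 libraries. SUS1 missed the threshold with a log2 fold change of 1.05 (standard error 0.52; adjusted p = 0.18, limma), which lay 0.022 below the median of its length class (2418 bases). Without line D7 it was 0.40. Such intervals cover counting error only, since PCR copies of a molecule could not be told from separate molecules.

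LIN5 and LIN6, the cell wall invertases, were high in line D7 alone. LIN5 read 0.84 and 1.26 RPKM in wild-type replicates 1 and 2, and 2.79 and 0.348 RPKM in lines D7 and C2. Lines D7 and C2 gave 3.64 and 0.354 RPKM of LIN6, while wild-type replicates 1 and 2 gave 0.668 and 0.655 RPKM. For both genes line D7 lay above and line C2 below both wild-type libraries, an arrangement found for 3.61% of all genes tested, whatever their level. LIN5 and LIN6 reached the filter through line D7, so its place as the high library is in part fixed by the filter. The lines were 8.01-fold apart for LIN5, from 85 and 9 reads, with an exact 95% counting interval of 4.03 to 18.1. For LIN6 they were 10.3-fold apart, from 97 and 8 reads, with an interval of 5.02 to 24.5. Both ratios compare 2 libraries, and each line has no replicate of its own. At 3 reads the value would be 0.116 RPKM for LIN5 and 0.133 RPKM for LIN6 in line C2, so both genes were read there above that floor.

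Over the groups the cell wall invertases did not pass the test. Log2 fold changes were 0.15 (standard error 0.56; adjusted p = 0.86, limma) for LIN5, of 2002 bases, and 0.59 (standard error 0.62; adjusted p = 0.50) for LIN6, of 1749 bases. Without line D7 the signs turned, to -0.60 for LIN5 and -0.29 for LIN6, and without line C2 the values were 0.89 and 1.48. The sign of LIN5 also turned with median-of-ratios scaling (-0.19), with quantile normalization (-0.30) and with the length trend removed (-0.81). In RefSeq the next protein-coding genes are LIN7 beside LIN5 and LIN8 beside LIN6, further members of the cell wall invertase family. How reads that map to several places were treated is not stated in the sources. Reads shared by such neighbours may have been dropped or placed on either gene, so the values of LIN5 and LIN6 are uncertain to that extent.

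**Figure D2:**
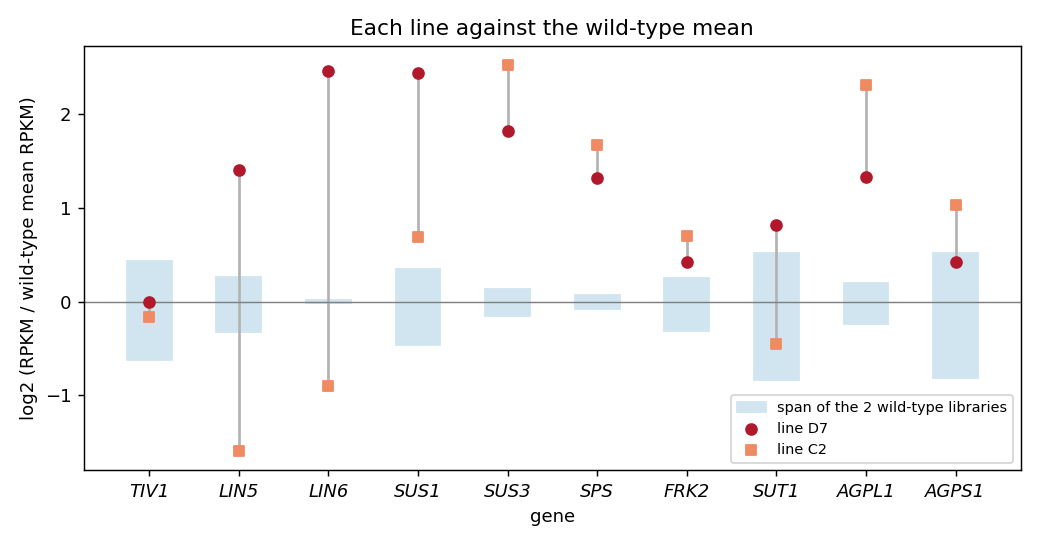
Log2 ratio of the RPKM of line D7 (circles) and line C2 (squares) to the wild-type mean for the 10 genes, with the span of the 2 wild-type libraries as a blue bar. The lines lie on opposite sides of the wild-type bar for LIN5 and LIN6, and both lie above it for SUS1, SUS3, SPS, FRK2 and AGPL1.

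Within each library, the ratio of TIV1 to SUS3 did not overlap between the groups. TIV1 was 118-fold and 69.9-fold above SUS3 in wild-type replicates 1 and 2, and 27.2-fold and 15-fold above it in lines D7 and C2. TIV1 held 99.1% and 98.3% of the summed RPKM of the 5 cleavage genes in wild type, 95.8% in line D7 and 93.6% in line C2. A scaling of whole libraries cannot move these ratios, but a trend with gene length or with level can. The median log2 fold change was 1.07 for the length class of TIV1 and 1.44 for that of SUS3. For genes of their level it was -0.84 and 0.47. The pair of TIV1 and SUS3 was not among the ratios planned. It holds SUS3, which had the largest log2 fold change of the genes tested, so its separation restates that result in part. Other unplanned ratios that hold SUS3 or SPS did not overlap either. TIV1 to SPS was 64.0 and 34.1 in wild type and 19.9 and 13.9 in lines D7 and C2. SUS3 to FRK2 was 0.295 and 0.162 in wild type and 0.568 and 0.763 in lines D7 and C2. The separation is thus not particular to the pair of TIV1 and SUS3. These ratios and shares are given as a description and were not tested. Of the ratios planned, only that of LIN5 to LIN6 did not overlap between the groups, and it rests on few reads in line C2. By comparison the ratio of SUS3 to SUS1 overlapped between the groups, at 25.7 and 11.9 in wild type and 11 and 60.3 in lines D7 and C2.

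SPS, the enzyme on the route back to sucrose, was the other gene that passed the test. The gene read 34.8 and 31.5 RPKM in wild-type replicates 1 and 2, and 82.7 and 106 RPKM in lines D7 and C2. The groups did not overlap, and the lower line was 2.38-fold above the higher wild-type library. Means and SDs (n = 2 each) were 33.1 ± 2.30 RPKM for wild type and 94.2 ± 16.3 RPKM for the lines, from 1520 to 5027 reads. SPS passed with a log2 fold change of 1.47 (standard error 0.28) and an adjusted p of 0.031 (limma), higher in 2 of 2 lines.

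SPS was also the longest of the 10 genes, at 3680 bases, and its log2 fold change lay 0.031 above the median of its length class. In that class 52.5% of genes had a lower value. Against genes of its level, 50 to under 100 RPKM, SPS lay above the median of -0.0013, and 12.7% of those genes were called higher. With the length trend removed its value was -0.079 (standard error 0.25; adjusted p = 0.87, limma), so the direction did not hold there. With median-of-ratios scaling it was 0.84 (standard error 0.27, adjusted p = 0.0895). Leaving out line D7, line C2 or wild-type replicate 2 gave values of 1.65, 1.29 and 1.40 with limma adjusted p-values of 0.156, 0.192 and 0.0742, and the call held without wild-type replicate 1 (adjusted p = 0.041). The ratio of SPS to SUS3 within a library was 1.85 and 2.05 in wild type and 1.37 and 1.07 in lines D7 and C2, which did not overlap. This ratio too was not among those planned and was not tested.

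**Figure D3:**
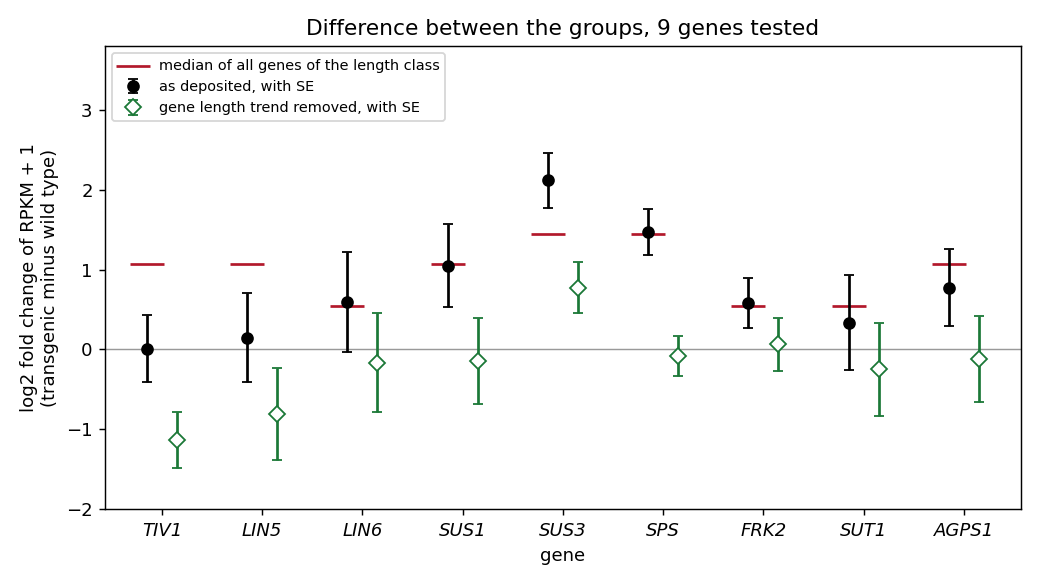
Log2 fold change of RPKM + 1 (transgenic minus wild type) with its standard error for the 9 genes tested, as deposited (black) and after removal of the length trend (green), beside the median of all genes of the same length class (red bars). As deposited SUS3 and SPS are the highest, at 2.12 and 1.47, and with the trend removed 7 of the 9 values lie below 0, with SUS3 at 0.77.

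FRK2, the fructokinase, lay above both wild-type libraries in both lines but did not pass the test. Lines D7 and C2 gave 107 and 129 RPKM of it, while wild-type replicates 1 and 2 gave 63.8 and 95 RPKM. The lower line was 1.12-fold above the higher wild-type library, which was itself 1.49-fold above the other. Its log2 fold change of 0.58 (standard error 0.32; adjusted p = 0.21, limma) lay 0.042 above the median of its length class (1459 bases). It was -0.050 with median-of-ratios scaling and 0.07 with the length trend removed.

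SUT1, the sucrose transporter, varied as much within groups as between them. The gene read 109 and 42.4 RPKM in wild-type replicates 1 and 2, and 134 and 55.1 RPKM in lines D7 and C2. The values alternated, with 1 high and 1 low library in each group, 2.43-fold apart between the lines and 2.56-fold apart between the wild-type libraries. For this gene of 1536 bases the log2 fold change was 0.33 (standard error 0.59; adjusted p = 0.70, limma). Its sign turned without line D7 (-0.30), without wild-type replicate 2 (-0.33), with median-of-ratios scaling (-0.30) and with the length trend removed (-0.25).

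Of the subunits of ADP-glucose pyrophosphorylase the small one was the more abundant in every library. AGPS1 lay above 46.7% to 65.8% of the genes read in a library and AGPL1 above 15.5% to 29.5%. Lines D7 and C2 gave 9.83 and 15.1 RPKM of AGPS1, the small subunit, while wild-type replicates 1 and 2 gave 4.18 and 10.5 RPKM. Line D7 lay between the wild-type libraries, so the groups overlapped. Its log2 fold change of 0.77 (standard error 0.48; adjusted p = 0.27, limma) lay 0.30 below the median of its length class (1911 bases), and with the length trend removed it was -0.11. Without wild-type replicate 1 it was 0.20 and without wild-type replicate 2 it was 1.35. AGPL1, the large subunit, read 0.443 and 0.326 RPKM in wild-type replicates 1 and 2, and 0.965 and 1.91 RPKM in lines D7 and C2. The groups did not overlap and the transgenic mean was 3.74-fold the wild-type mean, but the values rest on 31 and 52 reads in lines D7 and C2 and 20 and 9 reads in wild type, and the gene (2109 bases) was below the filter. Without a filter its log2 fold change of RPKM + 1 was 0.79 (limma, adjusted p = 0.12), a scale that understates the change of so low a gene. The median of its length class was 1.07, taken over genes that reached the filter. Its exact 95% counting interval in line D7, 0.656 to 1.37 RPKM, overlapped that of wild-type replicate 1, 0.271 to 0.684 RPKM. AGPS1 exceeded AGPL1 10.2-fold in line D7, 7.90-fold in line C2, 9.44-fold in wild-type replicate 1 and 32.3-fold in wild-type replicate 2.

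In part, the order of the 9 fold changes went with gene length. The median length was 2055.5 bases for the 10 genes and 1241 bases over the whole set tested, and the 2 that passed were the 2 longest. Against the median of their length class, 4 of the 9 genes lay higher and 5 lower. SUS3 stood farthest above its class and TIV1 and LIN5 farthest below, LIN5 by 0.92. With the length trend removed, 0 of the 9 genes passed the test, beside 0.107% of all genes called higher and 0% called lower, and the median log2 fold change of the 9 was -0.14. The refit removes any real change that goes with length as well, and which of these it removed was not tested.

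**Figure D4:**
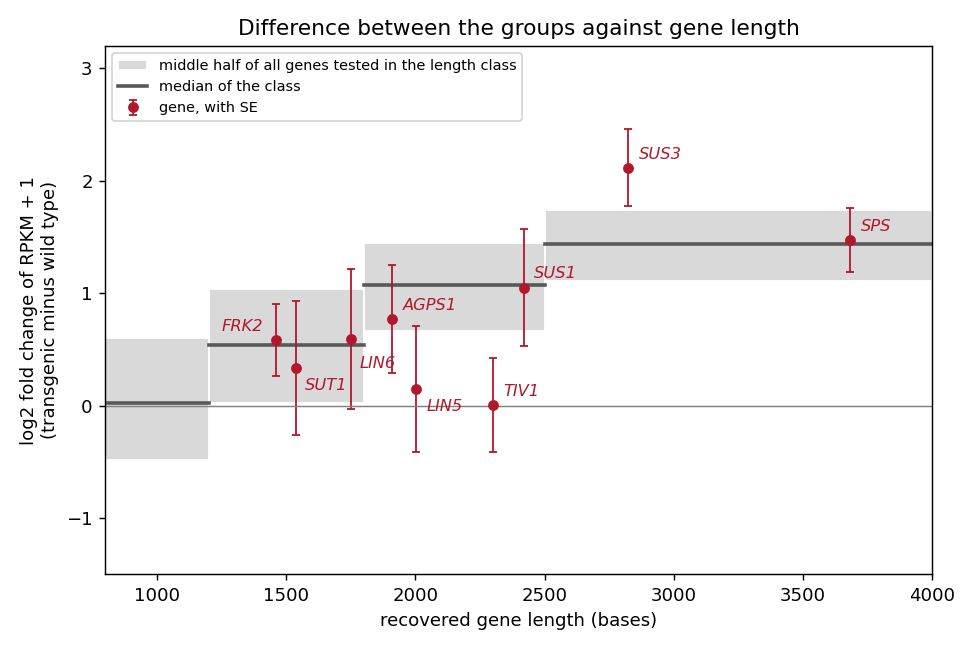
Log2 fold change of RPKM + 1 (transgenic minus wild type) with its standard error against recovered gene length for the 9 genes tested (red), with the range from the lower to the upper quartile (grey boxes) and the median (dark lines) of all genes tested in each length class from 800 to 4000 bases. SUS3 lies above the box of its class, TIV1 and LIN5 lie below theirs, and SPS lies on the median of its class.

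Except for SUS1, the genes tested fell into pairs by their pattern over the 4 libraries. The measure was the root mean square difference of log2(RPKM + 1) after centring each gene. It is not scaled to the size of a gene's changes, and the added 1 shrinks those of low genes such as LIN5, LIN6 and SUS1. LIN5 and LIN6 were each most like the other (0.27), as were SUS3 and SPS (0.35), FRK2 and AGPS1 (0.25), and TIV1 and SUT1 (0.43). SUS1 was most like LIN6 (0.32), with both high in line D7. LIN5 and LIN6 reached the filter through line D7, so their likeness to each other, and that of SUS1 to LIN6, is in part fixed by the filter. For TIV1, LIN5, LIN6, SUS1 and SUT1 the least like gene was SUS3, at 0.92 to 1.27, and SUS3 also had the largest log2 fold change. These are descriptions over 4 libraries and were not tested.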

How the data were processed

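Poly(A)-enriched RNA of tomato fruit was sequenced in 4 libraries. The authors deposited 1 table of RPKM with a column per library. The submitters' processing notes name HTSeq. For aligner, genome build, annotation release, strand and filters the entry is: not given in the sources used here. Columns were matched to samples by line name or replicate number, and groups were taken from the sample descriptions. All 10 genes are described whatever their values. The genes and lists were chosen with earlier results of these data known.

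Library totals, gene lengths and reads were recovered from the steps of the RPKM values, for lengths of 60 to 20000 bases and a tolerance of 0.001 reads. Of 24422 genes above 0, 24420 (99.99%) were solved, against 7.8% of 3053 genes with wrong totals. Recovered lengths are lower limits where reads and length share a factor. limma 3.58.1 in R 4.3.3 (lmFit, eBayes with trend) was fitted to log2(RPKM + 1) of the 16876 genes whose mean reached 1 RPKM. This scale understates changes of low genes. Counting intervals are exact (Poisson, or binomial for ratios; scipy 1.17.1). The length trend was removed by loess with a span of 0.3 per library. The recovery and the fit were tested on simulated data. Alternatives were other pseudocounts, filters, scalings and eBayes settings, voom on recovered reads, replicate blocks and leaving out each library. Other genes of the pathway and marker lists were not counted, because 0 of 41476 entries of the RefSeq table hold a Solyc ID. Sequences were not used here.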

Additional observations from a re-analysis of the deposited data

Results flagged for a closer look

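LIN5 and LIN6, the cell wall invertases, stood out because the lines lay on opposite sides of both wild-type libraries, line D7 above and line C2 below. The fold between the lines was 8.01 for LIN5 and 10.3 for LIN6. The difference between the lines was not tested, since each line is 1 library. The same arrangement was found for 3.61% of all genes tested, a share over genes of all levels. Both genes reached the filter through line D7, which in part fixes line D7 as the high library, so the share is no measure of how rare the arrangement is for such genes.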

How the results depend on the processing

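The 2 genes called higher, SUS3 and SPS, became 0 under quantile normalization, median-of-ratios scaling, the unfiltered fit and the removal of the length trend, and 0 to 2 with single libraries left out. Such fits assume that the lone library of a group varies like the other group. Both genes stayed called with pseudocounts of 0.1 and 5, a filter at a mean of 5 RPKM, eBayes without trend and robust eBayes. They also stayed called with voom on recovered reads (limma adjusted p = 0.0216 for SUS3 and 0.0236 for SPS). The number called lower was 0 in every setting. The median of the tested genes, 0.59, turned to -0.14 with the length trend removed, was 0.20 with median-of-ratios scaling and was 0.40 to 0.97 with single libraries left out. Over all genes, 3179 were called higher and 352 lower; quantile normalization gave 17 and 0, the length refit 18 and 0, the unfiltered fit 11 and 0, median-of-ratios scaling 498 and 926, and leaving out single libraries 6 to 3365 and 0 to 451. The cause of these changes was not tested. The sign turned with median-of-ratios scaling for TIV1 (-0.63), LIN5 (-0.19), FRK2 (-0.050) and SUT1 (-0.30), and with quantile normalization for LIN5 (-0.30). With the length trend removed it turned for TIV1 (-1.13), LIN5 (-0.81), LIN6 (-0.16), SUS1 (-0.14), SPS (-0.079), SUT1 (-0.25) and AGPS1 (-0.11). Single libraries left out gave -0.52 to 0.53 for TIV1 (-0.073 without line D7), -0.60 to 0.89 for LIN5, -0.29 to 1.48 for LIN6 and -0.33 to 1.00 for SUT1. SUS3 kept its direction in every setting run, from 0.77 to 2.46, and SPS in all but the length refit. The labels do not say whether a replicate number marks a shared plant or day, and deviations of same-numbered libraries correlated at -0.16 across genes. With the replicate number as a block 0 of the 9 genes were called (adjusted p = 0.063 for SUS3 and 0.064 for SPS) and 24 genes higher and 0 lower in all. The crossed block, chosen after seeing the data, gave 2 of the 9, and 4071 higher and 816 lower in all. Depth limits LIN5, LIN6 and AGPL1, each of which rests on 8 or 9 reads in the library with its fewest reads.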
